A study of Homo sapiens with 6 samples.

Results

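The clustered core and linker histone genes were followed in human primary effusion lymphoma cells exposed to 3-AP. A probe was taken as a member if its annotated symbol was H1-1 to H1-5 or H1-10, or began with H2AC, H2BC, H3C or H4C and a number. This gave 79 of the 47323 probes on the Illumina bead array, for 69 of the 20046 named genes, with 1 further probe among the 79 annotated to several H3 genes. By type there were 6 probes for the linker histone H1, 19 for H2A, 23 for H2B, 16 for H3 and 15 for H4. Variant histones such as H2AX and H2AZ1 were no members. Each of the lines BCP1, BCBL1 and BC1 was cultured for 48 h with 3-AP (triapine, an inhibitor of ribonucleotide reductase) at 2.5 µM or with vehicle, and each sample gave 1 array. The design set every 3-AP array against the vehicle array of its own line, so that there were 3 pairs and 6 arrays. These lines derive from a B cell tumour infected with Kaposi sarcoma-associated herpesvirus. The labels state low passage numbers and give 1 sample per line and treatment. The p-values of 3-AP against vehicle thus measure the spread of responses between lines.

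Histones package DNA into nucleosomes, whose core holds H2A, H2B, H3 and H4, while H1 binds the linker DNA between cores. Most of these genes lie in clusters, are transcribed mainly in S phase and make mRNAs that end in a stem-loop bound by the protein SLBP in place of a poly(A) tail. Their mRNAs are known to decay when DNA synthesis is blocked, and some of the genes, H2BC5, H2BC12 and H2BC21 among them, also make polyadenylated transcripts. H1-10 (formerly H1FX) lies alone on chromosome 3 and is expressed outside S phase too. Ribonucleotide reductase makes the deoxyribonucleotides that DNA synthesis needs. The primer of the labelling kit is not given in the labels, and how far transcripts without a poly(A) tail were copied was not tested. Cluster genes are near-copies of each other, so a probe may also read the transcripts of close relatives.

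The arrays labelled BCP1 and BCBL1 were very alike. Their log2 values correlated at 0.9932 with 3-AP and 0.9946 with vehicle. Under vehicle 0 of 47310 probes differed at least 4-fold between them, while 264 did for BCP1 set against BC1, and 272 for BCBL1 set against BC1. In the non-normalized table the signal columns named for BCP1 held the same value as the processed columns of BCBL1 in every probe. For this reason detection was judged on 4 arrays alone (BCBL1 and BC1), where 37.01% to 39.23% of probes passed it. Results are given below also with BCP1 and BCBL1 averaged into 1 replicate. The plasma cell markers SDC1, CD38, IRF4, PRDM1, XBP1 and TNFRSF17, 6 of 8, passed on all 4 arrays, whereas JCHAIN was detected on none. Of the mature B cell markers on the array none was detected on all 4, and PAX5 and CR2 were detected on none. The same held for all T and NK cell and myeloid markers, with CD3D, CD3E, NKG7, GNLY, ITGAM and S100A9 detected on no array. Their summed intensities on the 6 arrays were 1323 to 1569 with 3-AP and 1312 to 1595 with vehicle for T and NK cell markers, and 1129 to 1190 with 3-AP and 1130 to 1142 with vehicle for myeloid markers. The plasma cell sums were 22559 to 23475 with 3-AP and 17942 to 23348 with vehicle, and the mature B cell sums 1975 to 2173 with 3-AP and 1998 to 2046 with vehicle. In these lists 1 of 11 tested plasma cell probes (TNFRSF17) and 1 of 3 tested mature B cell probes (CD79B) were called higher with 3-AP and none lower, and their part in the histone results was not tested.

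Of the 79 histone probes 37, for 33 genes, were detected on at least 2 of the 4 arrays and entered the test. The other 42 stayed near background, 24 detected on no array and 18 on 1, with processed intensities between 115.6 and 248.9 on an arbitrary linear scale. Of the 18, 11 were seen on a vehicle array and 7 on a 3-AP array. Of the 37 tested probes 22 were detected on all 4 arrays. Another 4, H1-5, H2AC13, H2AC14 and H3C3, were detected on the vehicle arrays alone, so for these the 3-AP level is only an upper bound. No tested probe was detected on 3-AP arrays alone.

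The main question was which histone transcripts differed between 3-AP and vehicle. With 3-AP 9 of the 37 tested histone probes fell and 1 rose (limma with cell line as a block, Benjamini-Hochberg adjusted p under 0.05 over 18851 probes). Of all tested probes 7.05% passed, 3.56% lower and 3.49% higher. The probes that fell were those of H1-10, H2AC13, H2AC14, H2AC20, H2BC9, H3C12, H3C3, H4C12 and H4C3, and the probe that rose was that of H4C8. A probe seen on vehicle arrays alone could pass the detection filter, and 3 of the 4 such histone probes are among those that fell. Among the 22 histone probes detected on all 4 arrays 4 fell and 1 rose, against 4.50% and 4.22% of all such probes. The median log2 fold change was -0.06 over the 37 histone probes and -0.007 over all tested probes, but 0.05 over the 22 histone probes detected on all 4 arrays. Below 0 in all 3 lines were 16 of the 37, against 25.4% of all tested probes, and above 0 in all 3 were 6, against 22.8%. The 3-AP arrays all lay below the vehicle arrays for 11 histone probes, against 9.97% of all tested probes, and all above for 3, against 7.16%. The 4 probes seen on vehicle arrays alone are among these 11. Among the 22 histone probes detected on all 4 arrays 5 lay all below and 3 all above, against 11.3% and 8.27% of such probes, and 7 were below and 6 above 0 in all 3 lines, against 28.1% and 24.7%. These p-values rest on 3 pairs, and all fold changes are without background subtraction, which makes them smaller for dim probes. Each ± given below is the moderated SE of limma, which draws a probe's own spread toward that of all probes. It can be smaller or larger than the plain SE of the 3 pairs.

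**Figure D1:**
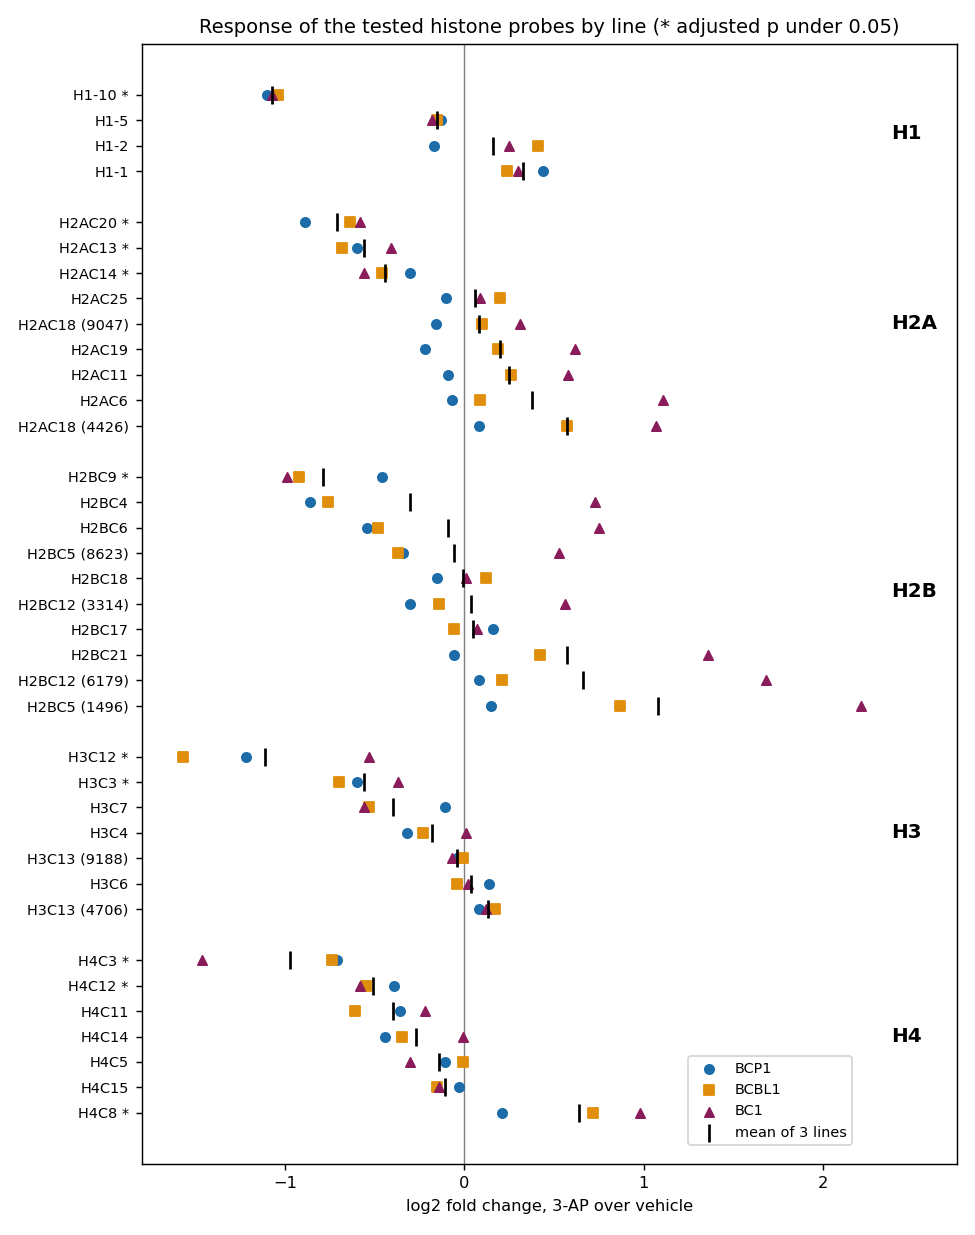
Log2 fold change of 3-AP over vehicle (x axis) for each of the 37 tested histone probes (rows, grouped by histone type), with 1 symbol per cell line and a bar at the mean of the 3 lines. Asterisks mark the 10 probes with an adjusted p under 0.05, and a number in brackets gives the last digits of the probe where a gene has several. Symbols of the H1-10 row nearly coincide, and in the H2B rows the BC1 symbol lies to the right of the other lines except for H2BC9, H2BC17 and H2BC18.

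The linker histone H1-10 showed the same fall in each line. Its processed intensity was 339.9, 335 and 491 with 3-AP in BCP1, BCBL1 and BC1, against 727, 686 and 1028 with vehicle. All 3-AP arrays lay below all vehicle arrays. The log2 fold changes were -1.10, -1.04 and -1.07, with a mean of -1.07 ± 0.08 (SE, n = 3 pairs) and a limma adjusted p of 0.00159. On the linear scale H1-10 was 2.09-fold lower with 3-AP. Among the histone probes it alone also passed with BCP1 and BCBL1 averaged (limma adjusted p = 0.0242). H1-2, a cluster-encoded linker histone, had 971, 1917 and 1093 with 3-AP, against 1090.5, 1445 and 919.8 with vehicle. The groups overlapped and the lines moved apart, at -0.17, 0.41 and 0.25 on the log2 scale (limma adjusted p = 0.44). H1-1 had 201, 202 and 190.0 with 3-AP, against 148, 171 and 154 with vehicle, a log2 fold change of 0.33 ± 0.09 that did not pass (SE, n = 3 pairs, limma adjusted p = 0.0642). The H1-5 probe was not above background on the 3-AP arrays of BCBL1 and BC1 and did not pass (limma adjusted p = 0.281). H1-3 and H1-4 were detected on no array.

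Among H2A genes 3 of 9 tested probes fell and none rose, against 3.56% and 3.49% of all tested probes. Of the 5 detected on all 4 arrays 1 fell, against 4.50% of all such probes. H2AC20, in the cluster on chromosome 1, had 339.9, 512 and 598 with 3-AP in BCP1, BCBL1 and BC1, against 631, 800.0 and 896 with vehicle. The 3-AP arrays were all lower, and the log2 fold change was -0.71 ± 0.09 (SE, n = 3 pairs, limma adjusted p = 0.0109). H2AC13 had 136, 157 and 137 with 3-AP, against 205, 252 and 182 with vehicle (log2 fold change -0.56 ± 0.09, limma adjusted p = 0.0179). H2AC14 had 129.6, 135 and 118 with 3-AP, against 159, 185 and 174 with vehicle (log2 fold change -0.44 ± 0.09, limma adjusted p = 0.0329). Neither H2AC13 nor H2AC14 was above background on the 3-AP arrays of BCBL1 and BC1. Set against the lowest detected signal on those arrays, 3-AP levels were at least 1.35-fold lower for H2AC13 and at least 1.14-fold lower for H2AC14, as means over these lines. The near-identical genes H2AC18 and H2AC19, which can share signal, had positive mean log2 fold changes and did not pass. H2AC18 (probe ILMN_2144426) had 325, 528 and 695 with 3-AP, against 307, 356 and 331 with vehicle, a log2 fold change of 0.57 ± 0.17 (limma adjusted p = 0.0814). The other tested H2AC18 probe had 0.08 ± 0.11. H2AC19 had 287, 462 and 594 with 3-AP, against 334, 406 and 386 with vehicle, a log2 fold change of 0.20 ± 0.15 (limma adjusted p = 0.454). In each of these probes the log2 fold change was highest in BC1. The remaining H2A probes, of H2AC6, H2AC11 and H2AC25, had mean log2 fold changes of 0.38, 0.25 and 0.06 and did not pass.

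Among H2B genes 1 of 10 tested probes fell and none rose, against 3.56% and 3.49% of all tested probes. Directions were opposite between lines for 7 of the 10, against 51.8% of all tested probes. H2BC9 had 152, 158 and 157 with 3-AP in BCP1, BCBL1 and BC1, against 208, 299.8 and 311 with vehicle. The BCBL1 value with 3-AP was not above background. Its 3-AP arrays were all lower, with a log2 fold change of -0.79 ± 0.12 (SE, n = 3 pairs, limma adjusted p = 0.0145). H2BC5 (probe ILMN_1651496) had 263, 684 and 1448 with 3-AP, against 237, 373 and 313 with vehicle. It was higher with 3-AP in each line, although the groups overlapped, with log2 fold changes of 0.15, 0.87 and 2.21, and did not pass (mean 1.08 ± 0.32 SE, limma adjusted p = 0.0858). The other tested H2BC5 probe had log2 fold changes of -0.34, -0.37 and 0.53, so the probes of this gene disagreed in BCP1 and BCBL1, but it was not above background on the BCBL1 array with 3-AP or the BC1 array with vehicle. For H2BC12 the probe ILMN_1796179 had 2212, 3916 and 4625 with 3-AP, against 2095, 3374 and 1448 with vehicle, and did not pass (mean log2 fold change 0.66 ± 0.28, limma adjusted p = 0.185). In the single lines its log2 fold changes were 0.08, 0.21 and 1.68, so most of the mean came from BC1. The other H2BC12 probe had 240.0, 327 and 342 with 3-AP, against 296, 361 and 232 with vehicle (mean log2 fold change 0.04 ± 0.16, limma adjusted p = 0.912). Of the 13 H2B probes left untested 7 were detected on no array.

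**Figure D2:**
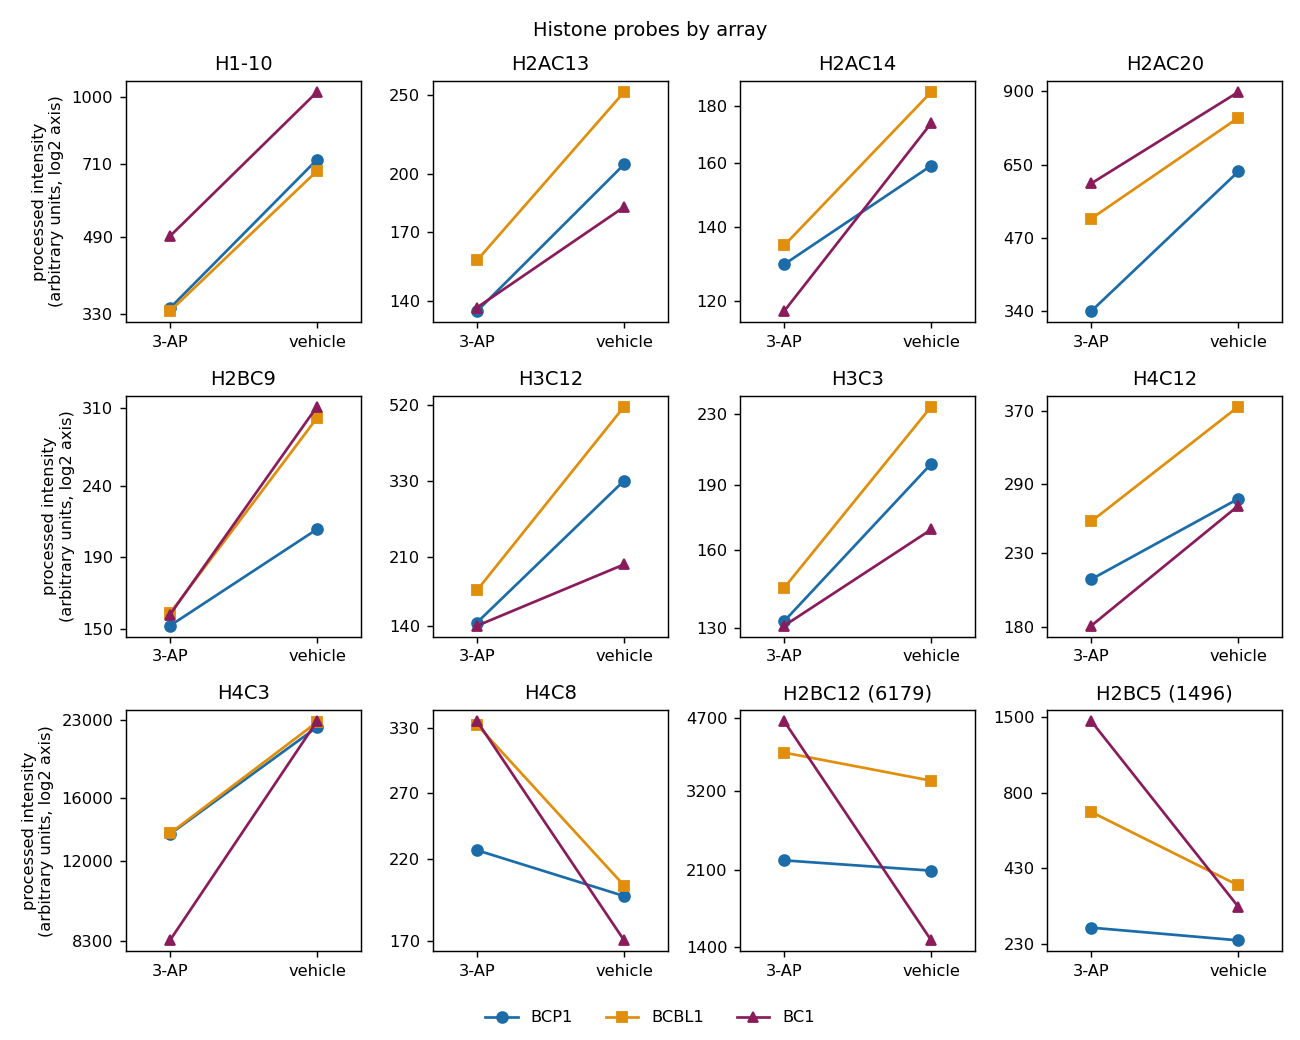
Processed intensity (y axis, arbitrary units, log2 axis with a range of its own in each panel) on the 3-AP array (left) and the vehicle array (right) of each cell line for the 10 histone probes that passed and for H2BC12 and H2BC5. Lines join the arrays of a cell line, and in the first 9 panels every 3-AP value lies below every vehicle value.

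Among H3 genes 2 of 7 tested probes fell and none rose, against 3.56% and 3.49% of all tested probes. Of the 3 detected on all 4 arrays none was called, against 4.50% lower and 4.22% higher of all such probes. The median log2 fold change of these 3 was 0.04. H3C12 had an intensity of 142, 173 and 139.8 with 3-AP in BCP1, BCBL1 and BC1, against 331, 514 and 201 with vehicle, and the groups did not overlap. The BC1 value with 3-AP was not above background, so the fall in BC1 and the mean are limited by it. The BCP1 value with 3-AP, which had no detection p-value of its own, lay below the array median of 146.0. The mean log2 fold change was -1.11 ± 0.18 (SE, n = 3 pairs, limma adjusted p = 0.0177), with -1.22, -1.57 and -0.53 in the single lines. H3C3 had 132, 145 and 131 with 3-AP, against 201, 234 and 169 with vehicle (log2 fold change -0.56 ± 0.10, limma adjusted p = 0.0202). It was not above background on the 3-AP arrays of BCBL1 and BC1. Set against the lowest detected signal there, 3-AP levels were at least 1.26-fold lower, as a mean over these lines. H3C7 had 212, 199.5 and 167 with 3-AP, against 229.9, 288 and 246 with vehicle. All its 3-AP arrays lay below the vehicle arrays, but the probe did not pass (log2 fold change -0.40 ± 0.11, limma adjusted p = 0.0695). H3C13, a near-identical copy of H3C14 and H3C15 that can share their signal, had (probe ILMN_1664706) 235, 223 and 223 with 3-AP, against 222, 198 and 204 with vehicle (log2 fold change 0.13 ± 0.08, limma adjusted p = 0.379). The other tested H3C13 probe had -0.04 ± 0.08 (limma adjusted p = 0.783) and was below 0 in all 3 lines. It was not above background on either BC1 array. H3C4 had -0.18 ± 0.10 and H3C6 0.04 ± 0.09, and neither passed. The probe annotated to several H3 genes was not tested.

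Of the 7 tested H4 probes 2 fell and 1 rose, against 3.56% and 3.49% of all tested probes. Below 0 in all 3 lines were 6 and above 0 was 1, against 25.4% and 22.8% of all tested probes. Some values lay close to 0, such as H4C14 in BC1 (-0.01), H4C5 in BCBL1 (-0.01) and H4C15 in BCP1 (-0.03). Most H4 genes encode the same protein. H4C3 (formerly HIST1H4C) had 13566, 13612 and 8313 with 3-AP in BCP1, BCBL1 and BC1, against 22214, 22731 and 22832 with vehicle. The vehicle arrays were close together and every 3-AP array was below them, with log2 fold changes of -0.71, -0.74 and -1.46 (mean -0.97 ± 0.15 SE, n = 3 pairs, limma adjusted p = 0.0159), or 1.96-fold. H4C12 had 211, 256 and 181 with 3-AP, against 276, 375 and 269.6 with vehicle (log2 fold change -0.51 ± 0.09, limma adjusted p = 0.0202). The rise was of H4C8, at 226, 334 and 337 with 3-AP, against 196, 202 and 171 with vehicle (log2 fold change 0.64 ± 0.14, limma adjusted p = 0.0419). All H4C8 values with 3-AP were above those with vehicle, with log2 fold changes of 0.21, 0.72 and 0.98 in the single lines. This call was lost when the line entered as a random block (limma adjusted p = 0.0558) and without the filter on dim probes (0.062), and held in 6 of 14 alternatives. H4C14 had 289.8, 410.2 and 222 with 3-AP, against 394, 524 and 224 with vehicle, and did not pass (log2 fold change -0.27 ± 0.11, limma adjusted p = 0.157). H4C11 (-0.40 ± 0.10), H4C5 (-0.14 ± 0.09) and H4C15 (-0.11 ± 0.08) had negative mean log2 fold changes and did not pass either.

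Of the 10 calls 9 were lost when BCP1 and BCBL1 were averaged into 1 replicate. H1-10 was then the 1 histone probe that passed, against 0.355% of all tested probes. The adjusted p-values of the other 9 were then between 0.0672 and 0.138, with log2 fold changes such as -1.09 for H4C3, -0.84 for H2BC9, -0.68 for H2AC20 and 0.72 for H4C8. Leaving out BCP1, H1-10 and H2BC9 passed (0.562% of all tested probes), and leaving out BCBL1 these passed with H2AC20, H3C12 and H4C3 (3.03%). Without BC1 20 histone probes passed, against 23.0% of all tested probes, on the spread between BCP1 and BCBL1 alone. Background subtraction had to give the BCP1 arrays imputed detection p-values. After it H1-10 and H2AC13 passed (0.292% of all tested probes), at log2 fold changes of -1.41 and -1.63. H2AC13 entered the test through the vehicle arrays alone and was not above background on the 3-AP arrays of BCBL1 and BC1. Its size here therefore depends on how background was removed. The non-normalized signals of BCBL1 and BC1 gave H1-10 alone (0.239%). A strict detection filter gave 5 histone probes, of at most 22 tested, against 9.72% of all probes tested so. The fit without the replicate block gave none (0.0530%), with 12 histone probes at an unadjusted p under 0.05.

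The lines were next compared by histone type, with medians over the tested probes as a description. In BCP1, BCBL1 and BC1 the median log2 fold change was -0.15, 0.04 and 0.03 for H1, -0.16, 0.10 and 0.31 for H2A, and -0.23, -0.10 and 0.65 for H2B. It was -0.11, -0.23 and -0.07 for H3 and -0.36, -0.35 and -0.22 for H4. The medians over all tested probes lay between -0.013 and -0.002. Above 0 were 3, 4 and 9 of the 10 H2B probes in BCP1, BCBL1 and BC1, and 1, 1 and 1 of the 7 H4 probes. A rise of at least 2-fold was seen for 5 histone probes in BC1, against 1.19% of all tested probes there, and for none in BCP1 or BCBL1 (0.340% and 0.302%). A fall of at least 2-fold was seen for 2 histone probes in each line, against 0.0690% in BCP1, 0.0902% in BCBL1 and 0.939% in BC1. H1-10 was 1 of the 2 in every line, joined by H3C12 in BCP1 and BCBL1 and by H4C3 in BC1.

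The BC1 response was set against the mean response of BCP1 and BCBL1, a contrast chosen with earlier results of these data known. BC1 is a single pair, and the fit assumes that it would vary like the other lines, so its p-values do not show a difference that would recur in further BC1 samples. By this limma interaction term 14 of the 37 histone probes had an adjusted p under 0.05, 13 of them higher in BC1, against 13.0% of all tested probes, 6.32% higher and 6.70% lower. These were 7 H2B, 4 H2A, 1 H3 and 2 H4 probes, and no H1 probe. The fit had 1 residual degree of freedom and an infinite prior, so every probe was judged with the same pooled SE of 0.17, taken over all probes from BCP1 and BCBL1, whose arrays were very alike. With the strict detection filter 9 histone probes passed, of at most 22 tested, against 20.7% of all probes tested so. After background subtraction no probe of any gene passed this limma test, and 3283 probes, 13 of them histone probes, had an unadjusted p under 0.05. The 14 differences were then larger in size. The genes named here beyond those above were chosen after their values were seen. H2BC4 moved in opposite directions. It had 169, 238 and 394 with 3-AP, against 307, 402 and 237 with vehicle, so that it was lower with 3-AP in BCP1 and BCBL1 and higher in BC1 (difference of log2 fold changes 1.54 ± 0.17 SE). H2BC6 did the same, with log2 fold changes of -0.54, -0.48 and 0.75 (difference 1.26 ± 0.17 SE). Its BC1 vehicle value of 155.9 lay just over the lowest detected signal there, 152.4. Its BCP1 value with 3-AP, 140.2, lay below the array median of 146.0. H2AC6, the divergently transcribed neighbour of H2BC4, had log2 fold changes of -0.07, 0.09 and 1.11 (difference 1.10), but it was not above background on the BC1 vehicle array, so that the BC1 value rests on a background signal. H2BC21 had 206, 364 and 539.9 with 3-AP, against 215, 273 and 210.0 with vehicle, with the largest gap in BC1 (difference 1.18 ± 0.17 SE). The differences were 1.70 for H2BC5 (ILMN_1651496) and 1.53 for H2BC12 (ILMN_1796179). H4C3 was the 1 probe of the 14 with a negative difference, of -0.73 ± 0.17. For H1-10 the difference was 0.00 ± 0.17.

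**Figure D3:**
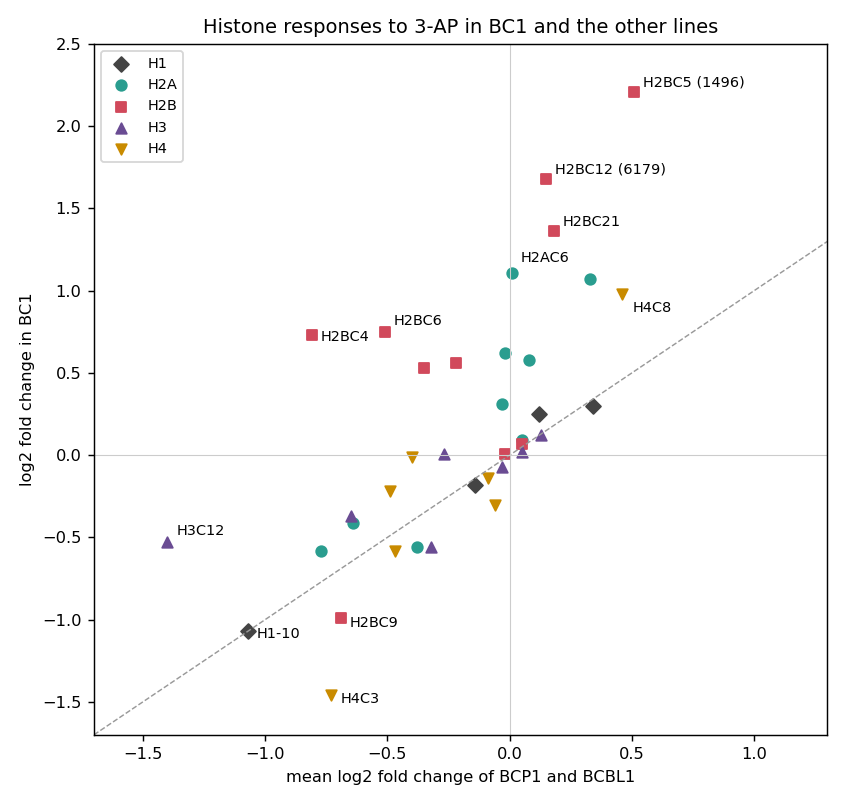
Log2 fold change of 3-AP over vehicle in BC1 (y axis) against the mean of BCP1 and BCBL1 (x axis) for the 37 tested histone probes, coloured by histone type, with a dashed line of equal response. Most H2B probes lie above the line, H2BC5 (ILMN_1651496) highest at 2.21 in BC1, while H1-10 lies on it and H4C3 below it.

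Promoters of some of these genes are shown because members of the same type moved apart. They comprise the 150 bases before the annotated start, written 5′ to 3′ on the gene's strand from RefSeq (GRCh38.p14). Capitals mark the CCAAT box (CCAAT or ATTGG), the TATA box (TATAAA or TTTATA) and the octamer ATTTGCAT or its reverse complement ATGCAAAT, which do not overlap in these sequences. The genes are H1-10, H2BC9 and H4C12, which fell, and H2BC12, H2BC5 and H2BC4, whose log2 fold changes were highest in BC1.
H1-10 (chr3:129316287-129316436, minus strand): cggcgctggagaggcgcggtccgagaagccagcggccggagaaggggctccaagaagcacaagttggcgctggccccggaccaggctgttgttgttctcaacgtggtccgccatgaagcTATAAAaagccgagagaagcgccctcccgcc
H2BC9 (chr6:26251464-26251613, plus strand): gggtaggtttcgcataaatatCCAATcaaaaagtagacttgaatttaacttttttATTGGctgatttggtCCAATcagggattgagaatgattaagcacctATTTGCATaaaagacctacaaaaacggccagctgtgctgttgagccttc
H4C12 (chr6:27831561-27831710, minus strand): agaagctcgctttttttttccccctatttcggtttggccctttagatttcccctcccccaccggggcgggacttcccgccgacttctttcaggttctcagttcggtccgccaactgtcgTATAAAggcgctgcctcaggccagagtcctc
H2BC12 (chr6:27146859-27147008, minus strand): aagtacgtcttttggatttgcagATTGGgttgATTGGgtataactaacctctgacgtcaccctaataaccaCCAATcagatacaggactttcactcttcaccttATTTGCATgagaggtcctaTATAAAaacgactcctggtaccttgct
H2BC5 (chr6:26157971-26158120, plus strand): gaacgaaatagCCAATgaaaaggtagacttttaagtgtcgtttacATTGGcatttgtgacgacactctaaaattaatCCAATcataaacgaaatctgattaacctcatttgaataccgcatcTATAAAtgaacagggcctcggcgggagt
H2BC4 (chr6:26123927-26124076, minus strand): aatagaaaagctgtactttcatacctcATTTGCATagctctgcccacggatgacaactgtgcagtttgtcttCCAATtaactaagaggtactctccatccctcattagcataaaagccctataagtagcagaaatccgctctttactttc

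Over the 300-base windows of the same table, which reach 50 bases past the start, a promoter was found for 64 of the 69 member genes. The octamer was present in 14 of 18 H2B and 11 of 16 H2A promoters, in 1 of 11 H3 promoters and in 0 of 6 H1 and 0 of 13 H4 promoters, against 1.8% of all 27305 promoters. The CCAAT box was present in all 18 H2B, all 16 H2A and all 11 H3 promoters, in 5 of 6 H1 and in 3 of 13 H4 promoters, against 35.7% of all. The TATA box as spelled here was present in 43 of the 64, against 12% of all. H2BC9 and H2BC12 both hold the octamer and CCAAT boxes within the printed stretch, and responded differently in BC1. This pair was named after its values were seen. In the 150 bases before its start H4C8, which rose, held none of these motifs as spelled here, although it held the similar catataagg. H4C12, which fell, held a TATA box. These H4 genes were also named after their values were seen, and H4C3, which fell too, was not read in this window. A link between motifs and responses was not tested. These matches describe letters in a window and not factor binding.

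Levels between lines were compared after quantile normalization across the 6 arrays. Of the 37 histone probes 8 differed between lines (limma F test, adjusted p under 0.05), against 28.6% of all tested probes. H1-10 stood at 8.93, 8.92 and 9.48 (log2 level, mean of both arrays of BCP1, BCBL1 and BC1), highest in BC1 (limma adjusted p = 0.00667). H1-2 was at 9.97, 10.76 and 9.97, so that here BCBL1 stood above the other lines (limma adjusted p = 0.00774). H2AC20 was at 8.83, 9.36 and 9.51 (limma adjusted p = 0.00721), with BCP1 the lowest. H4C14 was at 8.38, 8.88 and 7.85 (limma adjusted p = 0.00238), with BC1 the lowest, and H4C15 and H4C12 passed with the same order. H2AC25 and H3C13 (ILMN_3249188) completed the 8.

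Genes that make, process and carry histones were read from lists of known members. In the list of histone transcription and mRNA processing 3 of 36 tested probes rose and none fell, over 25 genes, against 3.49% higher and 3.56% lower of all tested probes, with a median log2 fold change of -0.01. They were cyclin E genes and their kinase, which drive the S phase activator of histone transcription, NPAT. CCNE1 (ILMN_2374425) had 440.3, 442 and 732 with 3-AP in BCP1, BCBL1 and BC1, against 241, 274 and 462 with vehicle (log2 fold change 0.74 ± 0.09 SE, limma adjusted p = 0.00889). CCNE2 had a log2 fold change of 0.45 ± 0.09 (limma adjusted p = 0.0325) and CDK2 (ILMN_1665559) of 0.46 ± 0.08 (limma adjusted p = 0.0222). On the BCBL1 vehicle array CCNE2 had 137.9, below the lowest detected signal of 164.0, so its rise there starts from background. The other tested probes of CCNE1 and CDK2 had 0.03 ± 0.08 and 0.06 ± 0.10 and did not pass. This CCNE1 probe had intensities of 142.9 to 168.8, close to background, where a change may not show. Of the remaining genes EXOSC10, an exosome nuclease, had the smallest raw p, at -0.31 ± 0.08 (limma adjusted p = 0.0624). The stem-loop binding protein SLBP had 2 probes at 0.02 ± 0.08 and 0.12 ± 0.08, and NPAT was at 0.04 ± 0.08; none of these passed, and SLBP and NPAT were named after their values were seen.

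In the list of histone chaperones and import factors 3 of 33 tested probes fell and 2 rose, over 27 genes, against the same 3.56% and 3.49% of all tested probes, with a median of -0.08. NASP, which holds H3-H4 and linker histones before assembly, had 362, 395 and 364 with 3-AP, against 645, 602 and 647 with vehicle, and all 3-AP arrays were lower (log2 fold change -0.76 ± 0.09 SE, limma adjusted p = 0.00889). RBBP4 (ILMN_3251085), a subunit of the assembly factor CAF-1, fell by this probe (-0.50 ± 0.10, limma adjusted p = 0.0289), but its other probes had -0.02 ± 0.09 and 0.32 ± 0.12. The importin gene IPO4 fell (-0.42 ± 0.10, limma adjusted p = 0.042). CHAF1B, another CAF-1 subunit, rose (0.39 ± 0.08, limma adjusted p = 0.037), as did the H3-H4 chaperone ASF1B (0.41 ± 0.09, limma adjusted p = 0.0433). Among variants outside the clusters 2 of 15 tested probes fell, both of CENPA, the centromeric H3, and none rose, over 9 genes, where 3.56% of all tested probes fell. CENPA (ILMN_1801257) had 573, 578 and 314 with 3-AP, against 1063, 1132 and 811 with vehicle, and did not overlap between groups (log2 fold change -1.08 ± 0.11 SE, limma adjusted p = 0.00556). The other CENPA probe had -0.70 ± 0.09 (limma adjusted p = 0.0103). H3-3B, a replication-independent H3.3 gene, had -0.42 ± 0.10 and H2AZ1 -0.25 ± 0.10, and neither passed (limma adjusted p = 0.0504 and 0.152). With BCP1 and BCBL1 averaged, CENPA (ILMN_1801257) alone of the 10 probes called in these lists passed (limma adjusted p = 0.0386). The adjusted p-values of the other 9 were then between 0.0672 and 0.182. When the line entered as a random block the calls of CHAF1B (limma adjusted p = 0.124), ASF1B (0.0531), IPO4 (0.0635) and CCNE2 (0.0683) were lost, and a variance trend lost those of CHAF1B, ASF1B and IPO4.

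**Figure D4:**
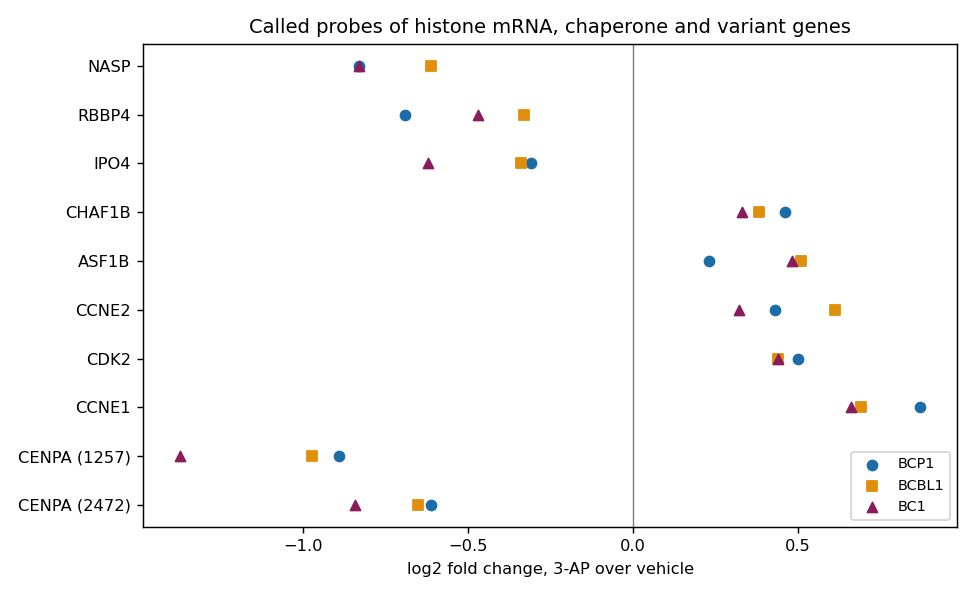
Log2 fold change of 3-AP over vehicle (x axis) by cell line for the 10 probes that passed in the lists of chaperone and import, histone mRNA and variant genes (rows), with the last digits of the probe for CENPA. All 3 lines lie on the same side of 0 in every row.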

How the data were processed

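Total RNA of 6 samples was labelled as cRNA and read on Illumina bead arrays, per the labels' protocols. The authors deposited a table of processed intensities on a linear scale and a non-normalized table of intensities with detection p-values. No source used here names the scanner software or the method of normalization. Sorted values of the 2 arrays of a line agreed within 1% in 99.05% to 99.47% of probes. Both arrays of a line had the same median, 146.0 in BCP1, 152.2 in BCBL1 and 140.9 in BC1. Distributions were thus almost equal within each line, so a shift of all transcripts together with 3-AP would not show. The main values are log2 of the processed intensities. Because the non-normalized BCP1 columns repeat the processed values of BCBL1, BCP1 had no detection p-values of its own and none were imputed, except in the background-subtracted alternative.

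Probes detected (p under 0.05) on at least 2 of 4 arrays were tested, 18851 in all, after 13 with a value of 0 were left out. limma 3.58.1 in R 4.3.3 (lmFit, eBayes) took the cell line as block, which pairs the arrays because both come from the same line. Deviations from the group means correlated at 0.78, 0.82 and 0.87 within lines and at 0.61 and 0.63 between BCP1 and BCBL1. This fit had 2 residual and 5.49 prior degrees of freedom, and the SEs given are its moderated SEs. The BC1 interaction had 1 residual degree of freedom and an infinite prior. Fits were tested on simulated data for the comparison of 3-AP with vehicle over 18851 probes. They called 34% of probes changed by 0.5 on the log2 scale, 98% of those changed by 1, and 0.091% of unchanged ones. The simulated lines varied independently, whereas the BCP1 and BCBL1 arrays were very alike, so these rates may not hold for the real arrays. The BC1 interaction was not simulated. An "at least" fold sets the bright group's mean against the lowest detected signal per array or the dim probe's own value, whichever was higher.

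Of all probes 30113 had 1 symbol, 8 had several and 17202 were unnamed, in an annotation updated through RefSeq gene IDs, which named all 69 member genes. The promoter table used here matched 64. The members, the lists, the main test and the BC1 contrast were chosen with earlier results of these data known. Genes named with every value were all called members and, for each type, the 3 tested members with the highest mean level. In the related lists, called genes and otherwise those of smallest raw p were named. Differently processed values (background, normalization, filter, pseudocount, probe choice, variance trend, block, left-out lines, averaged lines) are compared in the closing section.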

Additional observations from a re-analysis of the deposited data

Results flagged for a closer look

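For 14 histone probes a limma interaction term set the response to 3-AP in BC1 apart from the mean response of BCP1 and BCBL1 (adjusted p under 0.05, with 13.0% of all tested probes called). BC1 is 1 pair with no replicate, assumed to vary like the other lines, so these are values to look at again and not a shown difference between lines. Differences are BC1 minus the mean of the other lines, in log2 fold change. Among H2B probes they were 1.53 and 0.78 for the probes ILMN_1796179 and ILMN_1813314 of H2BC12, 1.70 and 0.88 for ILMN_1651496 and ILMN_1758623 of H2BC5, 1.54 for H2BC4, 1.26 for H2BC6 and 1.18 for H2BC21. Among H2A probes they were 1.10 for H2AC6, 0.75 for H2AC18 (ILMN_2144426), 0.64 for H2AC19 and 0.50 for H2AC11. The difference was 0.87 for H3C12, 0.52 for H4C8 and -0.73 for H4C3. H3C12 was not above background on the BC1 array with 3-AP, so a smaller fall in BC1 is not shown. H2AC6, H2AC11 and H2BC5 (ILMN_1758623) were not above background on the BC1 array with vehicle. H2BC4, H2BC6, H2BC12 (ILMN_1813314) and H2BC5 (ILMN_1758623) were lower with 3-AP in both BCP1 and BCBL1 and higher in BC1. All probes were judged with 1 pooled SE of 0.17 from BCP1 and BCBL1, whose arrays were very alike. After background subtraction none of these differences passed, although all 14 were larger in size, with 0.84 to 3.21 for the 13 positive ones and -0.78 for H4C3.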

How the results depend on the processing

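Single named results were repeated under up to 14 alternatives. Those of the BC1 response had at most 7, none with a line left out or with BCP1 and BCBL1 averaged. Of 541 repeats 405 kept direction and side of the threshold, 125 lost and 9 gained the call, and 2 turned round. Those that turned round, without BC1, were H2AC19 (-0.02 to 0.40 with a line left out) and H2BC12 (ILMN_1813314, -0.22 to 0.21). The H1-10 fall ranged from -1.41 to -1.04 and passed in 13 of 14, the exception being the fit with no replicate block. That fit, which ignores the pairing by line, called 10 probes and 0 histone probes (limma, with 1862 and 12 at an unadjusted p under 0.05), against 1329 and 10 in the blocked fit. Background subtraction called 55 probes and 2 histone probes, among them H2AC13, which was detected on vehicle arrays alone. Averaging BCP1 and BCBL1 called 67 and 1. The non-normalized signals of BCBL1 and BC1 gave 45 and 1. A strict detection filter (p under 0.01) gave 5 histone probes, of the at most 22 that it tests in any comparison. Leaving out a line gave 106 to 4338 probes and 2 to 20 histone probes, the lowest without BCP1 and the highest without BC1. The BC1 response called 0 probes and 0 histone probes after background subtraction (limma, with 3283 and 13 at an unadjusted p under 0.05, smallest adjusted p 0.236) and 9 histone probes with the strict filter, against 20.7% of all probes tested so. Level differences between lines were called for 3559 probes and 5 histone probes with the strict filter. With a line left out these were 963 to 4972 and 6 to 14, the lower probe count and the higher histone count without BC1. The H1 median of 0.00 was -0.12 after background subtraction, -0.13 with no filter and -0.45 with the strict filter. The H2B median of 0.02 was 0.57 with the strict filter. The H3 median of -0.18 was -0.57 after background subtraction, 0.00 with no filter, 0.08 with the strict filter, -0.29 with 1 probe per gene, and -0.27 to -0.11 with a line left out. The H4 median of -0.27 was -0.40 after background subtraction, -0.11 with no filter, -0.19 with non-normalized signals, and -0.40 to -0.18 with a line left out. The cause of these shifts was not tested. Of the 79 histone probes 42 were too close to background to be tested.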
